A study of Mus musculus with 10 samples.

Results

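The 10 genes described here encode members of the Toll-like receptor family together with the coreceptor CD14 and the adaptor MyD88: *Tlr1*, *Tlr2*, *Tlr3*, *Tlr4*, *Tlr5*, *Tlr7*, *Tlr9*, *Tlr13*, *Cd14* and *Myd88*. They were taken by symbol from the deposited gene table, where each of the 10 was found once among 56691 rows. RNA was sequenced from colon of 10 male C57/BL6 mice, which were 8 weeks old when obtained, before the treatments. They are named by group and number as in their labels (DSS-1 through DSS-5, ceAF-1 through ceAF-5). The DSS group drank 3% dextran sulfate sodium (DSS), a polymer that injures the colon lining, for 7 days. The ceAF group drank 3% DSS for 7 days as well and was then given chick early amniotic fluid (ceAF), 15 mL/kg by gavage, for 10 days. Both groups therefore carried the injury, and untreated colon was not analysed here.

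Between 16275884 and 19901549 reads per DSS mouse and between 14676471 and 18811795 per ceAF mouse were counted on genes. Levels are given as CPM, counts scaled to library size, with library sizes corrected by TMM, a trimmed mean of log ratios between libraries. The tissue label was checked against marker genes. All 10 markers of colon epithelium were high enough to be tested, and their summed level was 14686 to 27541 CPM, with *Krt8* the most abundant per exonic length. The 7 markers of small intestine summed to 7.56 to 155 CPM.

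In the deposited table, whose build is not named, the receptor genes lie on several chromosomes. *Tlr1* (ENSMUSG00000044827) spans 65082022 to 65090906 on chromosome 5, *Tlr2* (ENSMUSG00000027995) 83743579 to 83749074 on chromosome 3 and *Tlr3* (ENSMUSG00000031639) 45848702 to 45864117 on chromosome 8, all on the reverse strand. *Tlr4* (ENSMUSG00000039005) spans 66745821 to 66848521 on chromosome 4, *Tlr5* (ENSMUSG00000079164) 182782353 to 182804010 on chromosome 1, *Tlr9* (ENSMUSG00000045322) 106099797 to 106104082 on chromosome 9 and *Tlr13* (ENSMUSG00000033777) 105186810 to 105204099 on the X chromosome, all on the forward strand. *Tlr7* (ENSMUSG00000044583) lies on the reverse strand of the X chromosome at 166087925 to 166113554, *Myd88* (ENSMUSG00000032508) on that of chromosome 9 at 119165000 to 119170477, and *Cd14* (ENSMUSG00000051439) on that of chromosome 18 at 36858120 to 36859851.

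Toll-like receptors recognize conserved molecules of microbes and pass the signal through adaptor proteins to kinases, which release NF-κB and interferon regulatory factors into the nucleus. Some of them sit on the cell surface and read lipids and proteins of bacteria, whereas others sit in endosomes and read nucleic acids. In colon they are carried by epithelial cells as well as by macrophages, dendritic cells and B cells, and they meet the products of the gut flora once the lining is injured.

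All 10 members had enough counts to be tested, and none of them was called different between the ceAF and DSS groups. After Benjamini-Hochberg adjustment over the 16545 genes kept, edgeR's quasi-likelihood test called 0 of the 10 members, where it called 0% of all genes. At an unadjusted p-value under 0.05 it gave 0 of the 10 members, of which 0 were lower and 0 higher, against 6.93% of all genes (3.67% lower and 3.26% higher). DESeq2's Wald test called 0 of the 10 at an adjusted p-value under 0.05, against 0.12% of the genes it adjusted, and the limma fits called 0. The ceAF and DSS mice overlapped in every member, so that 0 of 10 were separated, where 1.24% of all genes were. A p-value that misses the threshold does not show that the groups were alike.

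Of the 10 members, 6 had a negative log2 fold change of ceAF against DSS and 4 a positive one, with a median of −0.06. Over all genes tested, 48.6% were lower and the median was 0.01. The members' fold changes ran from −0.96 for *Cd14* to 0.36 for *Tlr3*. In exact two-sided permutation tests of the mean log2 CPM, over all ways to draw 5 of the 10 mice, the members' p-values lay between 0.270 and 0.968. The smallest p that this design allows is 0.00794. Without DSS-1, 3 of the 10 members were lower in the ceAF group instead of 6. In bulk tissue, fewer cells of a type and less RNA per cell cannot be told apart, which holds for every level given here.

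**Figure D1:**
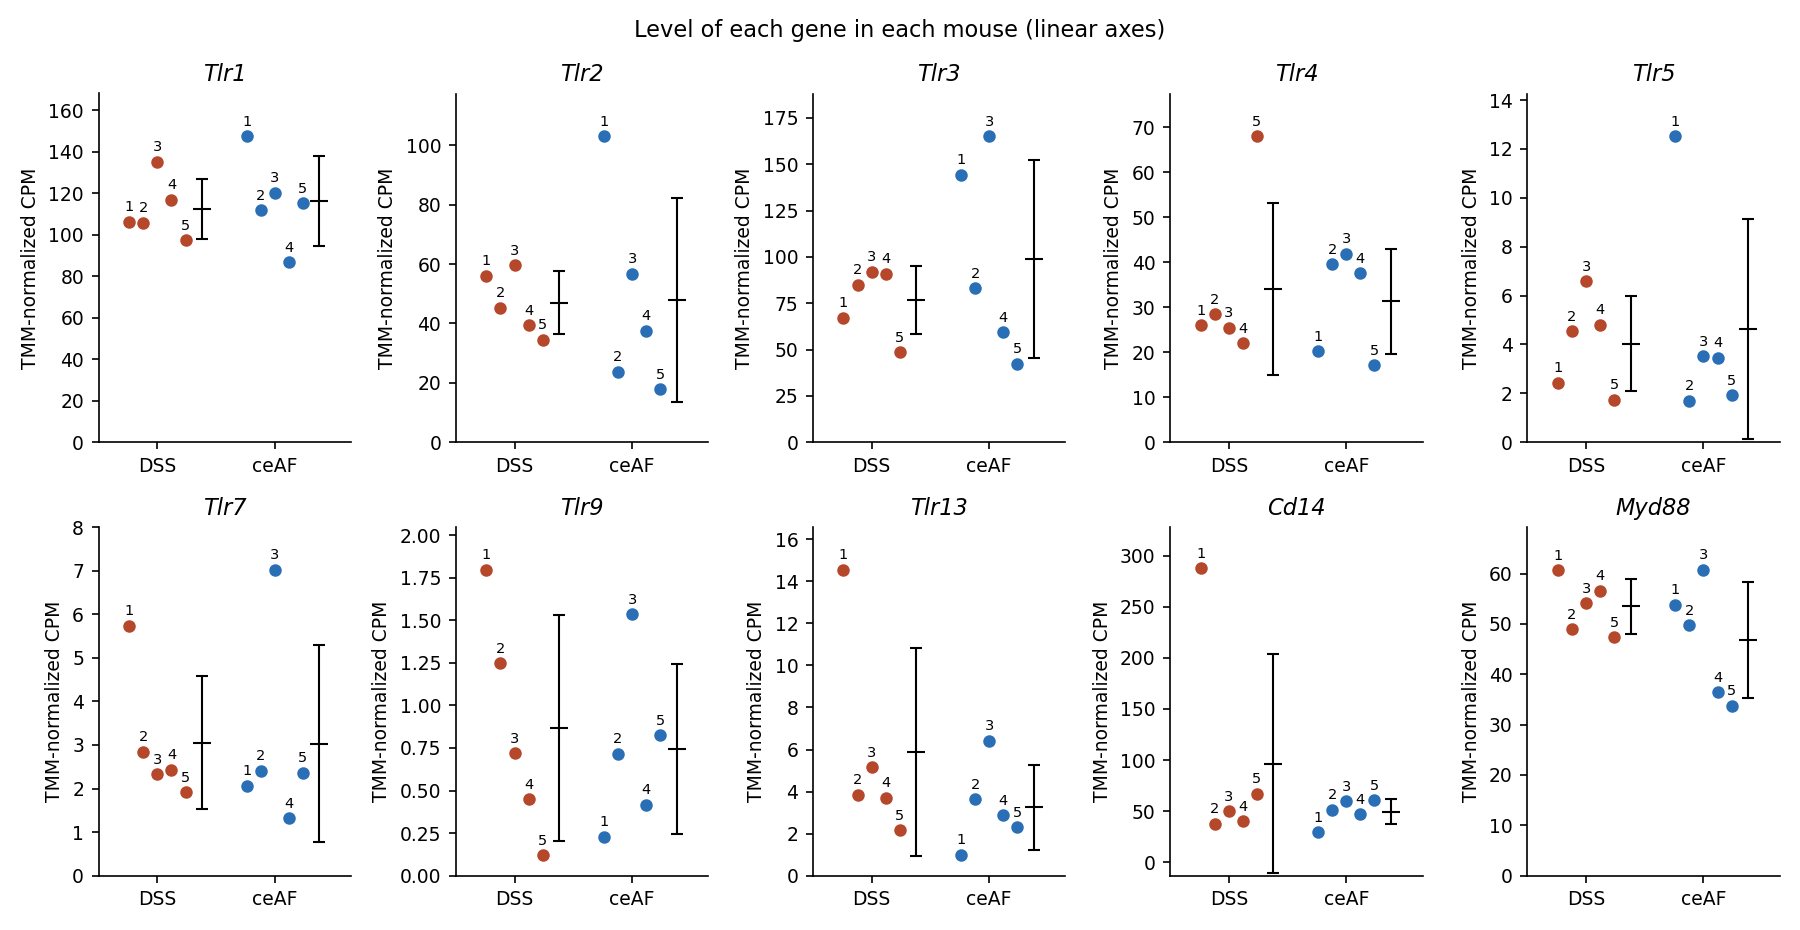
Each panel plots one gene, with TMM-normalized CPM on a linear vertical axis and the number of the mouse beside its point (red, DSS; blue, ceAF; bars, mean and SD of 5 mice). *Cd14* reached 288 CPM in DSS-1 and at most 67.0 in the other mice, whereas *Tlr1* stayed between 86.9 and 147.

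Levels of different genes were compared per exonic length, on the deposited FPKM (counts scaled to exonic length and library size), as the median over the 10 mice with the range. *Tlr1* stood first with 33.1 (27.1 to 41.5) FPKM, followed by *Cd14* with 29.4 (15.2 to 173) and *Myd88* with 19.1 (13.9 to 24.5). *Tlr3* had 16.1 (8.64 to 30.7) FPKM, *Tlr2* 14.1 (6.26 to 30.5) and *Tlr4* 5.0 (3.25 to 12.4). The remaining members formed a low group, with 0.830 (0.210 to 3.51) FPKM for *Tlr13*, 0.680 (0.320 to 2.15) for *Tlr5*, 0.585 (0.340 to 1.67) for *Tlr7* and 0.205 (0.0400 to 0.540) for *Tlr9*. Not every step of this order was larger than the spread between mice. *Tlr1* was above *Cd14* in 6 of 10 mice, *Tlr3* above *Tlr2* in 5, *Tlr13* above *Tlr5* in 6 and *Tlr5* above *Tlr7* in 5. In contrast, *Tlr4* was above *Tlr13* and *Tlr7* above *Tlr9* in 10 of 10 mice.

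**Figure D2:**
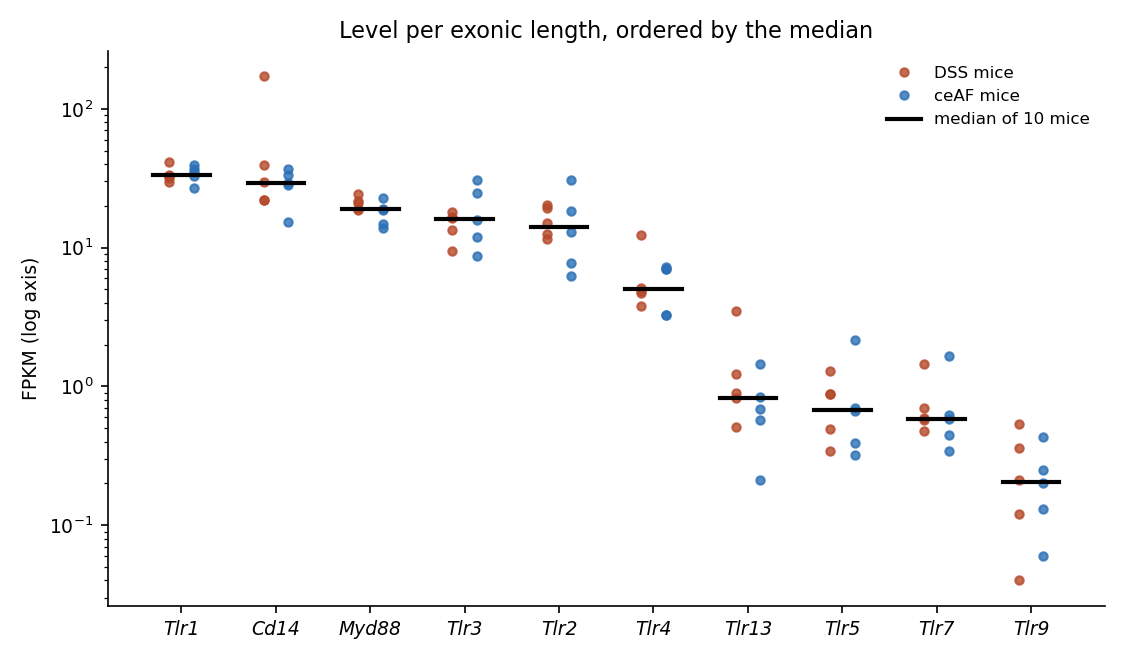
FPKM of each member in each mouse on a log axis, ordered by the median of the 10 mice (black line; red, DSS; blue, ceAF). The medians fall from 33.1 for *Tlr1* to 0.205 for *Tlr9*, and the colors overlap in every gene.

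The members also differed in how much they varied between mice. Over the 10 mice the coefficient of variation of the CPM was 15.3% for *Tlr1* and 18.3% for *Myd88*, below the median of 22.9% over all genes tested. The other 8 members lay above it, from 45.0% for *Tlr3* to 104% for *Cd14*. Between the lowest and the highest mouse, *Tlr1* differed 1.70-fold and *Tlr13* 14.7-fold. *Tlr9* had only 2 to 31 counts per mouse, so that counting error is large there. The highest mouse was DSS-1 for *Tlr9*, *Tlr13* and *Cd14*, ceAF-1 for *Tlr1*, *Tlr2* and *Tlr5*, ceAF-3 for *Tlr3*, *Tlr7* and *Myd88*, and DSS-5 for *Tlr4*. Reads of mitochondrial genes made up 5.34, 5.34, 5.45, 6.54 and 5.06% of the counts in the DSS mice and 9.66, 5.64, 4.53, 7.24 and 9.74% in the ceAF mice. ceAF-5 and ceAF-1 had the largest shares, the former being the lowest mouse in 4 members, and the part of this share in the levels was not tested.

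TLR2 reads bacterial lipoproteins on the cell surface as a pair with TLR1 or TLR6. *Tlr1* was measured at 106, 106, 135, 117 and 97.5 CPM in DSS-1 to DSS-5. In ceAF-1 to ceAF-5 it was at 147, 112, 120.3, 86.9 and 115 CPM. The mice of both groups lay in the same narrow band, with ceAF-1 at its top and ceAF-4 at its bottom. The means were 112 ± 14.5 CPM over the DSS mice against 116 ± 21.6 over the ceAF mice (SD, n = 5 each). Between the groups the log2 fold change was 0.05 (standard error 0.141, 95% interval −0.26 to 0.36), the narrowest interval of the members, and the exact permutation p was 0.786. Without ceAF-1 the log2 fold change was −0.05.

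*Tlr2* was at 56.0, 45.3, 59.6, 39.4 and 34.6 CPM in the DSS mice. Among the ceAF mice it was at 103, 23.8, 56.8, 37.5 and 17.8 CPM. The ceAF group held both the highest mouse, ceAF-1, and the lowest ones, ceAF-2 and ceAF-5, with all DSS mice in between. The means were nearly equal, 47.0 ± 10.7 CPM over the DSS mice against 47.8 ± 34.3 over the ceAF mice (SD, n = 5 each), and the log2 fold change was 0.02 (standard error 0.411, 95% interval −0.88 to 0.93), with an exact permutation p of 0.643. This value rested on ceAF-1, without which it was −0.47.

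*Tlr6*, the other partner of TLR2, was at 5.91, 1.75, 2.39, 1.60 and 1.38 CPM in the DSS mice and 0.687, 1.37, 2.36, 1.55 and 1.26 in the ceAF mice. Per exonic length, *Tlr1* was 246 times as high as *Tlr6* in ceAF-1, 20 times in DSS-1, where *Tlr6* was highest, and 57.1 times or more in the others. It was 1.29 to 5.85 times as high as *Tlr2* in the same mouse. *Tlr1* and *Tlr6* are neighbouring copies on the reverse strand of chromosome 5, in the table at 65082022 to 65090906 and 65109374 to 65117440, and reads shared between such similar genes may have been divided between them or left out. How the counting treated them is not given in the sources used here, so the ratio to *Tlr6* is uncertain.

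TLR4 reads lipopolysaccharide, which CD14 and the lipopolysaccharide-binding protein (*Lbp*) hand over and which the small protein MD-2 (*Ly96*) holds in place. *Tlr4* was at 26.0, 28.5, 25.4, 22.0 and 67.9 CPM in the DSS mice. The values after ceAF were 20.2, 39.6, 41.9, 37.6 and 17.1 CPM. DSS-5 stood alone at the top, and below it ceAF-2, ceAF-3 and ceAF-4 lay above the other DSS mice, whereas ceAF-1 and ceAF-5 lay below them. The log2 fold change was −0.12 (standard error 0.355, 95% interval −0.90 to 0.66), with an exact permutation p of 0.833. Without DSS-5 the sign turned and the value was 0.31.

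*Cd14* was at 288, 37.8, 50.0, 40.2 and 67.0 CPM in the DSS mice. The ceAF mice had 29.5, 51.3, 59.8, 47.1 and 60.5 CPM. DSS-1 alone was far above the others, and the remaining DSS mice overlapped with the ceAF mice. The means were 96.6 ± 108 CPM over the DSS mice against 49.6 ± 12.6 over the ceAF mice (SD, n = 5 each), with an SD in the DSS group larger than its mean. ceAF against DSS gave a log2 fold change of −0.96 (standard error 0.545, 95% interval −2.16 to 0.24), with a Benjamini-Hochberg adjusted p of 0.758 by edgeR and an exact permutation p of 0.532. It was the largest fold change of the members and belonged to DSS-1, since without this mouse it was 0.03.

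DSS-1 also had the highest summed level of the neutrophil markers. Of the 9 neutrophil markers, 4 were tested, and 4 of these had lower levels after ceAF, 3 of them at an unadjusted p-value under 0.05. Over all genes 3.67% were lower at this threshold, and after adjustment edgeR called 0 of the markers. Without DSS-1, 0 of the markers were under the unadjusted threshold, and the list's median log2 fold change was −0.91 instead of −3.37. The summed level of the list was 756, 116, 174, 191 and 490.0 CPM in the DSS mice and 20.5, 243, 180.3, 105 and 197 in the ceAF mice. *Ly6g*, the most abundant per length, made up most of this sum in every mouse but DSS-1, whereas the granulocyte receptor genes *Csf3r* and *Cxcr2* reached 112 and 45.7 CPM in DSS-1. In the other mice *Csf3r* was at most 13.8 and *Cxcr2* at most 3.77 CPM. *Elane* was at 0 in every mouse and *Mpo* at no more than 0.116 CPM. A list's score in a mouse is the mean over its tested genes of log2 CPM relative to each gene's mean over the mice. The neutrophil score and log2 CPM of *Cd14* had r of 0.850 over the 10 mice (permutation p = 0.00935, adjusted over 110 pairs of a member and a marker list 0.147) and rho of 0.406 (permutation p = 0.246, adjusted 0.521). Without DSS-1 and ceAF-1, r was −0.0510, so that the relation rested on these mice. The B-cell score had a lower r to *Cd14*, 0.788 (permutation p = 0.00262, adjusted 0.0946), but a higher rho, 0.733 (permutation p = 0.0208, adjusted 0.184), and r of 0.459 without the same mice. For fibroblasts r was 0.754 and rho 0.624, and r without these mice 0.0160. Which cells held the *Cd14* RNA was not tested.

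The genes nearest to *Cd14* and *Tlr4* over the 10 mice were taken as a description, as the 3 of 15360 genes with the highest Pearson r of log2 CPM. For *Cd14* these were *Lyst* (0.960), *Hmox1* (0.957) and *Abca1* (0.944), and without DSS-1 and ceAF-1, the mice farthest from the median of *Cd14*, r was 0.901, 0.673 and 0.208. *Lyst* was thus the only gene of the 3 to stay close to *Cd14* without these mice. For *Tlr4* they were *Man1a2* (0.980), *Atp10b* (0.966) and *Atf6* (0.961), and r without DSS-5 and ceAF-5 stayed between 0.888 and 0.980. All 3 were highest in DSS-5, as *Tlr4* was, with *Atp10b* at 549 CPM there.

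Of 10 coreceptor and trafficking genes, all 10 were tested, 8 had lower and 2 higher levels after ceAF, 0 had an unadjusted p-value under 0.05, and the median log2 fold change was −0.13. *Hsp90b1*, the chaperone that folds most of these receptors and the most abundant gene of the list per length, was at 916 CPM in DSS-5 and between 355 and 586 in the other mice. *Lbp* and *Ly96* were named after their values were seen. *Lbp* was at 42.4 CPM in DSS-5, 11.8 in ceAF-5 and at most 4.64 elsewhere, so that DSS-5 led in *Tlr4*, *Hsp90b1* and *Lbp* alike. *Ly96*, in contrast, lay between 4.68 and 6.98 CPM in all 10 mice. Over the 10 mice, r to *Tlr4* was 0.427 and rho 0.2 for *Lbp*, and 0.8 and 0.685 for *Hsp90b1*, given without a test. Without DSS-5 and ceAF-5, r was 0.301 for *Lbp* and 0.546 for *Hsp90b1*.

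TLR5 reads flagellin, the protein of bacterial flagella. *Tlr5* was at 2.43, 4.55, 6.59, 4.80 and 1.74 CPM in the DSS mice. Among the ceAF mice it was at 12.5, 1.69, 3.51, 3.46 and 1.92 CPM. ceAF-1 stood far above all others, and the remaining mice of the groups overlapped widely. Between the groups the log2 fold change was 0.19 (standard error 0.563, 95% interval −1.05 to 1.43), with an exact permutation p of 0.968. Without ceAF-1 it was −0.60, so that this mouse set the sign.

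*Hoxb6*, a homeobox gene whose level changes along the length of the colon, was looked at beside *Tlr5* after its values were seen. It was at 1.27, 25.3, 36.6, 22.4 and 0.960 CPM in the DSS mice and 91.0, 0.846, 17.4, 2.98 and 0.880 in the ceAF mice. The mice that were high in *Hoxb6*, ceAF-1, DSS-2, DSS-3, DSS-4 and ceAF-3, were also the highest in *Tlr5*, and the mice near the bottom were the same as well. Over the 10 mice, Pearson's r of log2 CPM was 0.943 and Spearman's rho 0.976, and r without ceAF-1 and ceAF-2 was 0.936. These are given as a description with no p-value, because the pair was 1 of 11 chosen after their values were seen. *Car1*, a carbonic anhydrase of surface epithelium, was at 11922 CPM in ceAF-1 and 115 in DSS-5, the ends of its range, with r of 0.880 and rho of 0.903 to *Tlr5*. *Hoxb13* ran the other way, with 6.18 CPM in ceAF-1, its lowest mouse, and 215 in ceAF-2, its highest. The score of all 4 position genes looked at, *Hoxb6*, *Hoxb13*, *Hoxd13* and *Car1*, averages over these opposite courses and had r of 0.428 to *Tlr5*. Of these genes 2 were higher and 2 lower after ceAF (median 0.17), and 1, *Hoxd13*, had an unadjusted p-value under 0.05. *Hoxd13* was high only in ceAF-2 (121 CPM) and ceAF-3 (109 CPM), the group medians were 7.12 and 7.25 CPM, and the exact permutation p was 0.897. Its log2 fold change was 2.91 (standard error 1.23), and 2.36 without ceAF-3. The genes nearest to *Tlr5* among all genes compared were *Nceh1* (0.988), *Tmem170* (0.985) and *Gpatch2* (0.984), with r of 0.962 to 0.977 without ceAF-1 and ceAF-2. Of the marker lists, smooth muscle had the lowest r to *Tlr5*, −0.801 (permutation p = 0.00582, adjusted over the 110 pairs 0.128). Its rho was −0.879 (permutation p = 0.00159, adjusted 0.0874), and r without DSS-5 and ceAF-2 was −0.677. The small intestine score had r of 0.727 and rho of 0.721 to *Tlr5*. Where along the colon each piece was taken is not given in the sources used here. The parts of position and of muscle content in the level of *Tlr5* were not tested.

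*Tlr2* shared this order in part, with r of 0.763 and rho of 0.855 to *Hoxb6*, also without a test, and r of 0.590 without ceAF-1 and ceAF-5. *Tlr4*, in contrast, had r of −0.359 and rho of −0.345 to *Hoxb6*. Of the 45 pairs of members, *Tlr2* and *Tlr5* had the highest Pearson correlation of log2 CPM over the 10 mice. Its r was 0.810 (permutation p = 0.00475, adjusted over the 45 pairs 0.143). Spearman's rho was 0.818 (permutation p = 0.00575, adjusted 0.0647). Without ceAF-1 and ceAF-5, r was 0.630. The highest rho, 0.842, was that of *Tlr7* and *Tlr9* (permutation p = 0.00379, adjusted 0.0647). After adjustment 0 of the 45 pairs were under 0.05. The genes nearest to *Tlr2* were *Asap3* (0.961), *Galns* (0.947) and *Retreg3* (0.938), with r of 0.780 to 0.935 without ceAF-1 and ceAF-5.

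TLR3 sits in endosomes, reads double-stranded RNA and signals through TRIF (*Ticam1*) instead of MyD88, and its gene is known to respond to interferon. *Tlr3* was at 67.2, 84.9, 92.0, 90.9 and 48.7 CPM in the DSS mice. The values after ceAF were 144, 83.0, 165, 59.2 and 42.3 CPM. The ceAF group again held both ends, with ceAF-1 and ceAF-3 above every DSS mouse and ceAF-5 below every DSS mouse. The means were 76.7 ± 18.6 CPM over the DSS mice against 98.8 ± 53.6 over the ceAF mice (SD, n = 5 each). The log2 fold change was 0.36 (standard error 0.349, 95% interval −0.40 to 1.13), the highest of the members, with an exact permutation p of 0.595. Without ceAF-3 it was 0.11.

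*Irf7*, the interferon regulatory factor downstream of the endosomal receptors, was at 476, 454, 529.9, 554 and 89.1 CPM in the DSS mice and 1009, 469, 744, 87.2 and 61.4 in the ceAF mice. DSS-5, ceAF-4 and ceAF-5 were low, the other mice were several times higher, and the same 3 mice were the lowest in *Tlr3*. Over the 10 mice, r between *Tlr3* and *Irf7* was 0.888 and rho 0.915, and r without ceAF-3 and ceAF-5 was 0.884. No p-value is given because this pair, too, was among the 11 chosen after their values were seen. *Myd88* had r of 0.861 and rho of 0.842 to *Irf7*, also without a test, and r of 0.593 without ceAF-4 and ceAF-5. The course of *Irf7* was thus not particular to *Tlr3*. Among the marker lists, the colon epithelium score had rho of 0.842 to *Tlr3* (permutation p = 0.00379, adjusted 0.131). Its r was 0.726 (permutation p = 0.0156, adjusted 0.148), and 0.508 without DSS-5 and ceAF-5. The genes nearest to *Tlr3* among all genes compared were *Tor1aip1* (0.982), *Rnf31* (0.976) and *Enpp4* (0.976), with r of 0.963 to 0.980 when ceAF-3 and ceAF-5 were left out.

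TLR7 and TLR9 read single-stranded RNA and unmethylated DNA in endosomes and are known from plasmacytoid dendritic cells and B cells. *Tlr7* was at 5.74, 2.85, 2.33, 2.43 and 1.92 CPM in the DSS mice. The ceAF mice had 2.06, 2.41, 7.02, 1.31 and 2.36 CPM. A single mouse in each group, DSS-1 and ceAF-3, stood out, and the means were equal within their spread, 3.05 ± 1.54 CPM over the DSS mice against 3.03 ± 2.27 over the ceAF mice (SD, n = 5 each). ceAF against DSS gave a log2 fold change of −0.01 (standard error 0.462, 95% interval −1.02 to 1.01), with an exact permutation p of 0.794. It was 0.36 without DSS-1 and −0.57 without ceAF-3.

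*Tlr9*, the member with the lowest level, was at 1.80, 1.25, 0.718, 0.448 and 0.120 CPM in the DSS mice. Among the ceAF mice it was at 0.229, 0.716, 1.54, 0.418 and 0.825 CPM. DSS-1, ceAF-3 and DSS-2 were highest and DSS-5, with 2 counts, and ceAF-1, with 3 counts, were lowest. Between the groups the log2 fold change was −0.20 (standard error 0.619, 95% interval −1.57 to 1.16), the widest interval of the members, with an exact permutation p of 0.952. Without DSS-1 the sign turned and the value was 0.24, and without ceAF-3 it was −0.63. *Tlr8*, the neighbour of *Tlr7* on the X chromosome and similar to it in sequence, was at no more than 1.85 CPM in any mouse, and reads shared between the pair cannot be traced in this table.

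B-cell markers were highest in DSS-1, as *Tlr9* was. All 7 of the 7 B-cell markers were tested, 7 were lower in the ceAF group and 0 of them had an unadjusted p-value under 0.05. Without DSS-1, 0 were lower and 7 higher, with a median log2 fold change of 0.61 instead of −0.69. The markers' summed level was 220.3, 38.1, 28.9, 33.1 and 38.1 CPM in the DSS mice and 8.09, 39.6, 73.6, 11.8 and 109 in the ceAF mice, with *Cd79a* the most abundant per length and no marker at 0 in every mouse. To *Tlr9* the B-cell score had r of 0.665 (permutation p = 0.0359, adjusted 0.188) and rho of 0.758 (permutation p = 0.0153, adjusted 0.184), the highest rho of the lists. Dendritic cells had a higher r of 0.745 (permutation p = 0.0155, adjusted 0.148) and a lower rho of 0.661, and macrophages 0.698 (permutation p = 0.0236, adjusted 0.162) and 0.697. Without the farthest mice, r was 0.397 for B cells, 0.376 for dendritic cells and 0.535 for macrophages, so that the order of these lists is not settled. The genes nearest to *Tlr9* were *Ighv7-3* (0.932), *Plcg2* (0.928) and *Bhlhe41* (0.918), with r of 0.774 to 0.894 without DSS-5 and ceAF-1, where *Ighv7-3* is an immunoglobulin segment and *Plcg2* a phospholipase of B-cell receptor signaling. Those nearest to *Tlr7* were *Xpo6* (0.921), *Ifi209* (0.914) and *Ms4a4c* (0.898), and without DSS-1 and ceAF-3 r was 0.534, 0.913 and 0.863. The part of B cells in these levels was not tested.

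TLR13 reads a conserved stretch of bacterial ribosomal RNA in endosomes of macrophages and dendritic cells, and is present in mice but not in humans. *Tlr13* was at 14.5, 3.85, 5.15, 3.71 and 2.16 CPM in the DSS mice. The values after ceAF were 0.992, 3.64, 6.42, 2.86 and 2.31 CPM. DSS-1 was the highest mouse and ceAF-1 the lowest, and the other mice overlapped between the groups. The log2 fold change was −0.85 (standard error 0.559, 95% interval −2.08 to 0.38), with a Benjamini-Hochberg adjusted p of 0.799 by edgeR and an exact permutation p of 0.270. Without DSS-1 it was −0.18.

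*Tlr13* was the member that followed a marker list most closely. The 9 macrophage markers had scores of 0.67, 0.20, 0.35, 0.18 and −0.18 in the DSS mice and −1.04, 0.02, 0.28, −0.21 and −0.26 in the ceAF mice. Pearson's r between this score and log2 CPM of *Tlr13* was 0.946 over the 10 mice (permutation p = 0.000110), and Spearman's rho was 0.952 (permutation p = 0.000140). Adjusted over all 110 pairs of a member and a marker list, these p-values were 0.0121 and 0.0154, and this was the only pair under 0.05 in both. Without DSS-1 and ceAF-1, r was 0.912, so that the relation did not rest on these mice. The monocyte score came next, with r of 0.911 (permutation p = 0.000480, adjusted 0.0264) and rho of 0.830 (permutation p = 0.00478, adjusted 0.131), and r of 0.727 without the same mice.

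Of the 9 macrophage markers, 8 were lower in the ceAF group and 2 of these had an unadjusted p-value under 0.05, with a median log2 fold change of −0.51. Over all genes 3.67% were lower at this threshold, and after adjustment edgeR called 0 of the markers. Without DSS-1, 8 were still lower, with a median of −0.39, and 0 were under the unadjusted threshold. They summed to 249, 213, 227, 215 and 149.7 CPM in the DSS mice and 189.7, 172, 228, 182 and 170.3 in the ceAF mice, *C1qb* was the most abundant per length, and none was at 0 in every mouse. In ceAF-1, *Mertk*, the only marker higher after ceAF, made up 145 CPM of this sum, although the score was lowest there. The gene nearest to *Tlr13* among all genes compared was *Klra2*, with r of 0.973, followed by another receptor of the family, *Tlr6*, with 0.972, and by *Nfkbie* with 0.964. Without DSS-1 and ceAF-1 these were 0.877, 0.891 and 0.866. Whether *Tlr13* differed per macrophage was not tested.

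**Figure D3:**
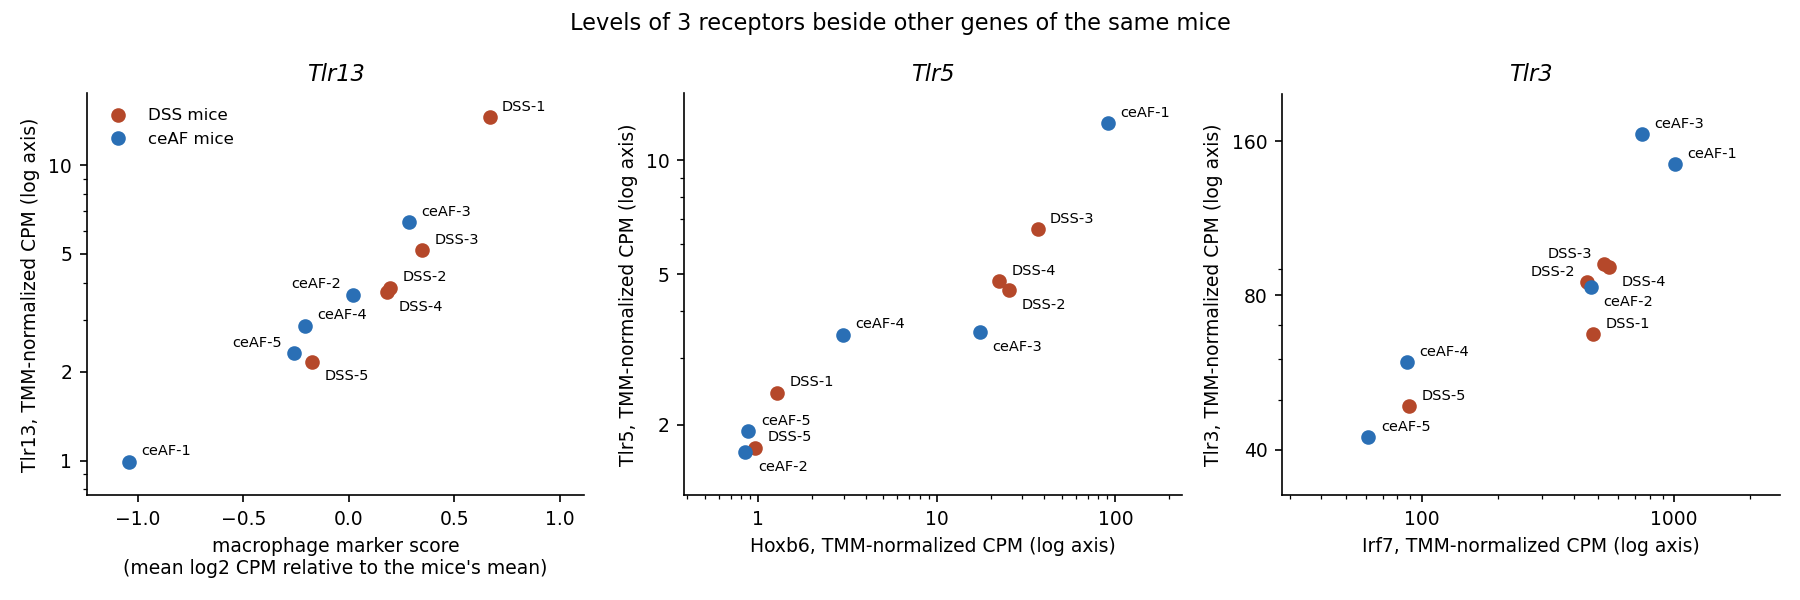
TMM-normalized CPM of *Tlr13*, *Tlr5* and *Tlr3* in each mouse (red, DSS; blue, ceAF) against the macrophage marker score, *Hoxb6* and *Irf7*. CPM is on log axes and the macrophage score on a linear axis. *Hoxb6* and *Irf7* were chosen after their values were seen. Mice of both groups are mixed along the vertical axis in each panel, from 0.992 to 14.5 CPM of *Tlr13*, 1.69 to 12.5 of *Tlr5* and 42.3 to 165 of *Tlr3*.

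MyD88 is the adaptor of all Toll-like receptors except TLR3 and of the interleukin-1 receptors. *Myd88* was at 60.7, 48.9, 54.1, 56.6 and 47.4 CPM in the DSS mice. The ceAF mice had 53.9, 49.7, 60.8, 36.4 and 33.8 CPM. ceAF-4 and ceAF-5 lay below every DSS mouse, whereas ceAF-1, ceAF-2 and ceAF-3 lay within the range of the DSS group or just above it. The means were 53.5 ± 5.48 CPM over the DSS mice against 46.9 ± 11.5 over the ceAF mice (SD, n = 5 each). ceAF against DSS gave a log2 fold change of −0.19 (standard error 0.163, 95% interval −0.55 to 0.17), with a Benjamini-Hochberg adjusted p of 0.861 by edgeR and an exact permutation p of 0.286. Leaving out single mice gave −0.29 to −0.09, the end nearest 0 without ceAF-5 and the other without ceAF-3. The genes nearest to *Myd88* were *Ctsb* (0.962), *Grn* (0.953) and *H2aw* (0.952), with r of 0.735 to 0.913 without ceAF-4 and ceAF-5, of which *Ctsb* and *Grn* encode lysosomal proteins. Those nearest to *Tlr1* were *Rfc2* (0.889), *Abca8b* (0.888) and *BC051226* (0.888), and they reached at most 0.706 without ceAF-1 and ceAF-4.

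Of 5 other adaptor genes, 4 were tested, 3 higher and 1 lower after ceAF, with 0 at an unadjusted p-value under 0.05 and a median of 0.16. *Ticam1*, the adaptor of TLR3 and the most abundant of them per length, lay between 34.1 and 59.0 CPM in the 10 mice, with a log2 fold change of 0.16 (standard error 0.164). Of the 4 receptors of the family outside the members, *Tlr6*, *Tlr8*, *Tlr11* and *Tlr12*, 3 were tested and 3 were lower, with 0 at an unadjusted p-value under 0.05 and a median of −0.45. *Tlr12*, the most abundant of these per length, was at 2.78, 4.55, 3.53, 6.02 and 1.86 CPM in the DSS mice and 0.839, 3.51, 3.13, 3.70 and 2.47 in the ceAF mice.

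**Figure D4:**
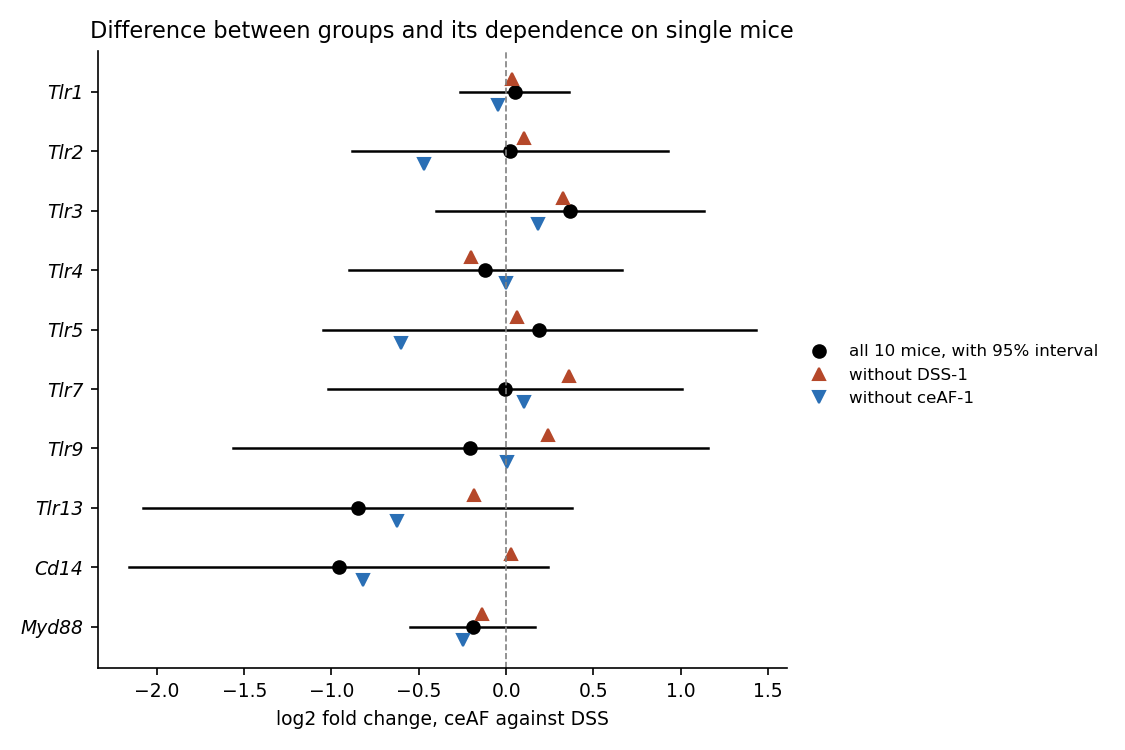
Log2 fold change of each member, ceAF against DSS, with its 95% interval over all 10 mice (black), without DSS-1 (red) and without ceAF-1 (blue). All 10 intervals include 0, and *Cd14* moves from −0.96 to 0.03 without DSS-1.

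Downstream of the receptors, all 19 of 19 kinase and ubiquitin ligase genes were tested, 14 higher and 5 lower in the ceAF group, with 0 at an unadjusted p-value under 0.05. Their log2 fold changes lay between −0.13 and 0.23 with a median of 0.05, and *Chuk*, which encodes a kinase of the complex that frees NF-κB, was the most abundant per length. Of the 8 transcription factor genes 6 were lower and 2 higher, with a median of −0.09 and 1 at an unadjusted p-value under 0.05, *Rela*. *Rela*, the NF-κB subunit that activates transcription, was at 54.8, 42.4, 45.9, 45.7 and 51.0 CPM in the DSS mice and 35.9, 45.2, 41.2, 38.5 and 31.3 in the ceAF mice. The groups overlapped, and the log2 fold change was −0.32 (standard error 0.116), with a Benjamini-Hochberg adjusted p of 0.656 by edgeR and an exact permutation p of 0.0159. Without DSS-1 it was −0.26, of much the same size, although the unadjusted p-value was then just above 0.05. Of the 12 negative regulators 10 were lower and 2 higher, with a median of −0.29 (7 lower and a median of −0.05 without DSS-1) and 0 at an unadjusted p-value under 0.05. *Nfkbia*, the inhibitor that NF-κB itself induces and the most abundant of them per length, reached 194 CPM in DSS-1 and 125 in DSS-5, and lay between 63.1 and 101 in the other mice.

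Of 7 genes of endogenous ligands 5 were lower and 2 higher after ceAF (median −0.16), and 3 of the lower ones had an unadjusted p-value under 0.05, *S100a8*, *S100a9* and *Tnc*. After adjustment edgeR called 0 of the 7, and 3.67% of all genes were lower at the unadjusted threshold. Without DSS-1, 3 of the 7 were lower, with a median of 0.00, and only *S100a9* stayed under this threshold. *S100a8*, an alarmin proposed as a ligand of TLR4, was at 401, 3.05, 47.8, 3.33 and 44.5 CPM in the DSS mice and 0.305, 2.28, 1.81, 13.1 and 13.7 in the ceAF mice. Its log2 fold change was −3.98 (standard error 1.38, exact permutation p = 0.111 over all mice) and, without DSS-1, −1.97. *S100a9* reached 697 CPM in DSS-1, with −5.15 (95% interval −8.46 to −1.84), and −2.62 without that mouse. Over all mice, its exact permutation p was 0.0397. *Tnc*, a matrix protein, was high in DSS-1 (151 CPM) and DSS-5 (141 CPM) and at most 64.0 in the other mice (exact permutation p = 0.167). *Hspd1*, the most abundant ligand gene per length, had a log2 fold change of 0.10 (standard error 0.174).

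Of 17 genes that these receptors are known to induce, 14 were tested, 14 had lower levels after ceAF and 8 had an unadjusted p-value under 0.05, against 3.67% of all genes in this direction. The median log2 fold change was −2.03, and after adjustment edgeR called 0 of them and DESeq2 2 of the 9 to which it gave an adjusted p-value, *Ccl4* and *Ccl5*. Without DSS-1 all 14 were still lower, but 4 had an unadjusted p-value under 0.05 and the median was −0.56. *Il1b*, *Cxcl2*, *Ptgs2* and *Lcn2* were no longer among them. The chemokine gene *Ccl4* was at 42.8, 3.10, 6.65, 5.19 and 2.04 CPM in the DSS mice and 1.07, 1.76, 0.877, 0.597 and 0.440 in the ceAF mice, with no overlap between the groups. Its log2 fold change was −3.66 (standard error 0.872), and without DSS-1 it was −2.16 (exact permutation p = 0.00794 over all mice, the smallest this design allows). *Ccl5* had a log2 fold change of −1.70 (standard error 0.351, exact permutation p = 0.0238 over all mice) and of −1.67 without DSS-1. *Ccl3* had −4.19 (standard error 1.10, exact permutation p = 0.0159 over all mice), and −2.05 without that mouse. *Acod1*, an enzyme of activated macrophages, was at 409.8 CPM in DSS-1, 54.3 in DSS-3 and at most 8.20 in the other mice. Its log2 fold change was −4.77 (standard error 1.46, exact permutation p = 0.111 over all mice) and became −2.26 without DSS-1. *Nos2*, the most abundant target gene per length, was highest in DSS-5 with 578 CPM, the mouse that was also highest in *Tlr4*, and its log2 fold change was −0.35 (standard error 0.495), and 0.17 without DSS-5. Many of these genes are also induced by other signals and made by other cells. All 6 T-cell markers were lower as well, 5 at an unadjusted p-value under 0.05 and 4 without DSS-1, with medians of −1.18 and −1.002. Over all genes 3.67% were lower at this threshold, and after adjustment edgeR and DESeq2 called 0 of these T-cell markers. They summed to 65.4, 54.0, 51.3, 62.5 and 20.2 CPM in the DSS mice and 14.2, 37.3, 30.1, 14.1 and 20.9 in the ceAF mice, with *Trac* the most abundant per length and none at 0 in every mouse. Their part in the target genes was not tested.

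Promoters of *Tlr3* and *Myd88* are shown because these were the members whose promoters held any of the letter patterns searched. RefSeq sequences of GRCm38.p6, a build of their own that need not be that of the table, were found for 7 of the 10 members, and not for *Tlr4*, *Tlr7* and *Cd14*. The 250 bases before each start were searched on both strands for the letters GGGANTTTC and GGGGNTTTC of NF-κB sites and GAAANNGAA of interferon response elements. Among 32851 promoters of the same length, 0.941%, 0.962% and 7.13% held a match. Capitals mark the match, GGGANTTTC in *Tlr3* and GAAANNGAA in *Myd88*, and the sequences run 5′ to 3′ on the strand of the gene, the reverse strand in both.
Tlr3, chr8:45410381-45410630: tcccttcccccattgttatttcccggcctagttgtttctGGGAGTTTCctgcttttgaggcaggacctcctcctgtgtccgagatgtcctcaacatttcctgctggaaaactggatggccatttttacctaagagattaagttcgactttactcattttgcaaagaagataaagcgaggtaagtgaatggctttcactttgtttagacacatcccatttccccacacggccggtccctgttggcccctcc
Myd88, chr9:119340019-119340268: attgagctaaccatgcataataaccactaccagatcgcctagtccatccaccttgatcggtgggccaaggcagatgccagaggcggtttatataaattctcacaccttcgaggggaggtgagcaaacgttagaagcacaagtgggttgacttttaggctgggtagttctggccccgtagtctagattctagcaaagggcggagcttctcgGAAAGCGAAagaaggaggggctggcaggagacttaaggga
The promoters of *Tlr1*, *Tlr2*, *Tlr5*, *Tlr9* and *Tlr13* held none of these letters in the window searched. A match is a description of the sequence, and its absence says only that these letters are not in the window.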

How the data were processed

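Colon RNA of 5 DSS and 5 ceAF mice was analysed, grouped by their labels. The authors deposited whole-number counts of reads per gene, without normalization, and the FPKM of the same counts, which equalled the count scaled by exonic length and library total within 0.006. The submitters' processing notes name cutadapt 1.9.1 and HISAT2 2.2.1, whereas the counting program, its strand setting and the build are not given in the sources used here. Counts were tested with edgeR 4.0.16 in R 4.3.3 (filterByExpr with a minimum count of 10, TMM, quasi-likelihood test, two-sided, Benjamini-Hochberg adjustment over the genes kept), and log2 CPM had a prior count of 1. Correlations used 100000 permutations. Alternatives were DESeq2 1.42.0, voom with sample weights and limma-trend on log2 FPKM (limma 3.58.1), upper quartile scaling, other filters, a replicate block and leaving out each mouse. The procedures were tested on simulated data. Genes outside the members were named by a rule: of each pathway list those past the threshold, otherwise up to 4 with the smallest unadjusted p under 0.05, plus the most abundant per length, and the 3 genes nearest to each member with a mean CPM of at least 1. Members and lists were chosen with earlier results of these data known. The position genes, *Tlr6*, *Tlr8*, *Lbp*, *Ly96* and the named markers were chosen after their values were seen. Plots used matplotlib 3.10.9 under Python 3.11.15.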

Additional observations from a re-analysis of the deposited data

Results flagged for a closer look

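For the highest and lowest mouse of a group, the distance to its nearest neighbour was taken as a share of the group's whole range (gap over range) and compared with Dixon's critical value of 0.71. Chance passes it in about 1 in 20 groups if the values are normally distributed. Of 66 groups tested, over the members, the list scores, the total count and the mitochondrial share, 12 passed it. Chance would give 3.30 under that condition. The members were compared on CPM without logs, for which the condition was not checked, so that this expected number is uncertain. The values tested are also not independent, since many belong to the same mouse.

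Among the members, DSS-1 was far above the other DSS mice in *Cd14* (gap over range 0.883), *Tlr13* (0.759) and *Tlr7* (0.757). DSS-5 was far above them in *Tlr4* (0.859). In the ceAF group, ceAF-1 stood apart in *Tlr5* (0.832) and ceAF-3 in *Tlr7* (0.808). Among the marker lists, DSS-1 was highest in the scores of B cells (0.819) and fibroblasts (0.780). DSS-5 was lowest in those of T cells (0.766) and dendritic cells (0.761). The total count of DSS-2, 19901549, lay above the rest of its group (0.908), as did the mitochondrial share of DSS-4, 6.54% of its counts (0.737). Shares of 9.74% in ceAF-5, 9.66% in ceAF-1 and 7.24% in ceAF-4 were larger but did not pass the critical value in their group. DSS-2 and DSS-4 were neither highest nor lowest in any member. The causes of these values were not tested.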

How the results depend on the processing

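Under every alternative tried, 0 of the 10 members were called and 0 had an unadjusted p under 0.05. The smallest p of a member was 0.0528, for *Tlr13* without ceAF-3. The number of genes called was 0 in edgeR, also with voom, and 26 with DESeq2, 1 and 5 with limma-trend on FPKM with pseudocounts of 1 and 0.1, and 0 to 3 with single mice left out. The direction of a member was less firm, and 36 of 189 log2 fold changes had the opposite sign to the value reported. Only *Tlr3* and *Myd88* kept their sign throughout. With voom and sample weights the values were −0.025 for *Tlr1*, −0.46 for *Tlr2*, 0.35 for *Tlr4*, −0.78 for *Tlr5*, 0.18 for *Tlr7* and 0.059 for *Cd14*. Without DSS-1 and ceAF-1 together, chosen after seeing the data, they were −0.071 for *Tlr1*, −0.40 for *Tlr2*, −0.74 for *Tlr5*, 0.45 for *Tlr7*, 0.44 for *Tlr9*, 0.031 for *Tlr13* and 0.16 for *Cd14*. On FPKM, *Tlr2* was at −0.23 and −0.25 with pseudocounts of 1 and 0.1, and *Tlr5* at −0.062 with 0.1. *Tlr7* was at 0.011 without a filter and at 0.009 with the stricter one, which left out *Tlr9*. With the replicate number as a block, *Tlr2* was at −0.23 and *Tlr5* at −0.12, and no call changed. The deviations of mice of equal number had correlations of −0.249 to 0.286, and 1 of 5 DSS mice correlated best with its own number, so that the numbers were not taken to pair mice.

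Leaving out single mice gave log2 fold changes of −0.049 to 0.15 for *Tlr1*, −0.47 to 0.23 for *Tlr2*, −0.24 to 0.31 for *Tlr4*, −0.60 to 0.45 for *Tlr5*, −0.57 to 0.36 for *Tlr7*, −0.63 to 0.24 for *Tlr9*, 0.11 to 0.56 for *Tlr3*, −1.24 to −0.18 for *Tlr13*, −0.29 to −0.093 for *Myd88* and −1.16 to 0.030 for *Cd14*, and the number of members lower in the ceAF group from 3 without DSS-1 to 7. The cause of these changes was not tested. With 5 mice per group and intervals as wide as reported, differences in either direction remain possible for most members.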
